A study of Homo sapiens with 12 samples.

Results

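The human topoisomerases and tyrosyl-DNA phosphodiesterases were measured by RNA sequencing in 3 leukemia cell lines that differ in etoposide resistance and in a splice site of TOP2A. The members were chosen by gene symbol: TOP2A, TOP2B, TOP1, TOP1MT, TOP3A, TOP3B, TDP1 and TDP2, which are 8 of the 58395 genes in the count table. All 8 passed the filter on low counts and were among the 18286 genes tested. They held 0.110% to 0.122% of the reads of an edit-3 library, 0.109% to 0.117% in K/VP.5 and 0.123% to 0.133% in K562.

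Each of the 3 lines was sequenced in 4 libraries. K/VP.5/edit-3 (edit-3 for short) is a clone of K/VP.5 in which Cas9, a guide RNA and an oligonucleotide template changed bases at the start of intron 19 of TOP2A. K/VP.5 is an etoposide-resistant clone of K562 in which the site is unedited, and K562 is the parental line, from a chronic myeloid leukemia in blast crisis, with the BCR-ABL fusion. The labels describe medium with 0.5 µM etoposide given every other week for all 3 lines together, so the drug history of K562 cannot be told from them. Edit-3 and K/VP.5 are 1 clone each, so the edit or the resistance and any other difference of the clone cannot be told apart. Nothing in the labels ties the 4 libraries of a line to separate cultures. A p-value here therefore measures no more than library-to-library spread, part of which may be technical. In a comparison written as edit-3 versus K562, a positive log2 fold change means higher in edit-3.

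Topoisomerases relieve the twists and knots that form when DNA is copied, transcribed or separated. Type II enzymes (TOP2A and TOP2B) cut both DNA strands and pass another duplex through the gap, while type I enzymes cut a single strand, and each stays bound to the cut end through a tyrosine until the strand is closed again. Etoposide holds the type II enzymes in this cut state, so that a cell with less enzyme forms fewer breaks, and the tyrosyl-DNA phosphodiesterases remove what is left of a trapped enzyme from the DNA end. A form of TOP2A mRNA that keeps intron 19 encodes a shortened protein, which the series describes as part of the resistance of K/VP.5.

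The site that was edited is printed first because it defines the edit-3 line. It lies where exon 19 of TOP2A meets intron 19 on the minus strand of chromosome 17. Exon 19 is shown as in the GENCODE 29 transcript (GRCh38, chr17:40404152-40404273, minus strand, 122 bases, coding), with its last bases, which the series gives as the exon side of the site, in capitals.
TOP2A exon 19: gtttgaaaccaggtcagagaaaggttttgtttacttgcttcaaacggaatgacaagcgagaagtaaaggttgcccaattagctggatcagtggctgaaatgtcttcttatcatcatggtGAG
Intron 19 begins with GTAAAC before the edit and with GTAAGT after it. The substitutions are A5G and C6T, counted from 1 at the first base of the intron. The transcript has 35 exons, and the 2283 coding bases through exon 19 make 761 whole codons of 1531, or 49.7%, with 0 bases left over. The intron spans chr17:40403055-40404151 (1097 bases). A count per gene adds up all its transcripts, so the values of TOP2A below do not separate transcripts that keep this intron from those that remove it, and they do not check the edit.

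TOP2A, the type II enzyme that is most abundant in dividing cells and a main target of etoposide, fell in K/VP.5 relative to K562 and was higher in edit-3 than in K/VP.5 without reaching the level of K562. Levels are CPM, read counts scaled to library size with the TMM method. TOP2A (ENSG00000131747, chr17:40388516-40417950, minus strand) stood at 410, 437, 383 and 434 CPM in edit-3, at 370, 358, 368 and 339 CPM in K/VP.5 and at 539, 543, 490 and 505 CPM in K562. All edit-3 libraries lay above all K/VP.5 libraries, and all K562 libraries lay above both other lines. The means were 416 ± 25.1 CPM in edit-3, 359 ± 14.5 CPM in K/VP.5 and 519 ± 25.8 CPM in K562 (SD, n = 4 each).

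For K/VP.5 versus K562 the log2 fold change of TOP2A was -0.53 (SE 0.065, 95% interval -0.68 to -0.39), with an adjusted p of 1.2e-05 by edgeR's quasi-likelihood test with Benjamini-Hochberg adjustment over the 18286 genes, as for every adjusted p below. For edit-3 versus K/VP.5 it was 0.21 (SE 0.065, 95% interval 0.07 to 0.36, edgeR adjusted p = 0.027). For edit-3 versus K562 it was -0.32 (SE 0.065, 95% interval -0.47 to -0.17, edgeR adjusted p = 0.001). The changes of TOP2A against K562 passed in all 12 fits that left out 1 library each. The change of TOP2A in edit-3 versus K/VP.5 passed in 5 of these 12. It did not pass without edit-3 replicate 2 or 4, K562 replicate 2 or any 1 of the 4 K/VP.5 replicates. Over all 12 fits the log2 fold change stayed between 0.17 and 0.25, and the edgeR adjusted p reached 0.11. In these bulk samples, fewer cells in the phases that make TOP2A mRNA and less of it per cell cannot be told apart.

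TOP2B, the type II enzyme that is also made in cells that do not divide, fell in K/VP.5 and in edit-3, each relative to K562. TOP2B (ENSG00000077097, chr3:25597905-25664907, minus strand) stood at 247, 281, 245 and 269 CPM in edit-3, at 244, 252, 256 and 269 CPM in K/VP.5 and at 324, 341, 296 and 381 CPM in K562. The libraries of edit-3 and K/VP.5 overlapped, and those of K562 lay above them all. The means were 261 ± 17.7 CPM in edit-3, 255 ± 10.3 CPM in K/VP.5 and 336 ± 35.5 CPM in K562 (SD, n = 4 each). The log2 fold change of TOP2B was -0.39 for K/VP.5 versus K562 (SE 0.080, edgeR adjusted p = 0.0012) and -0.36 for edit-3 versus K562 (SE 0.080, edgeR adjusted p = 0.0019). Both passed in all 12 fits without 1 library. For edit-3 versus K/VP.5 the log2 fold change was 0.03 with a 95% interval of -0.15 to 0.21 (edgeR adjusted p = 0.83), so a change of the size seen in TOP2A lay at the edge of what the data allowed.

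**Figure D1:**
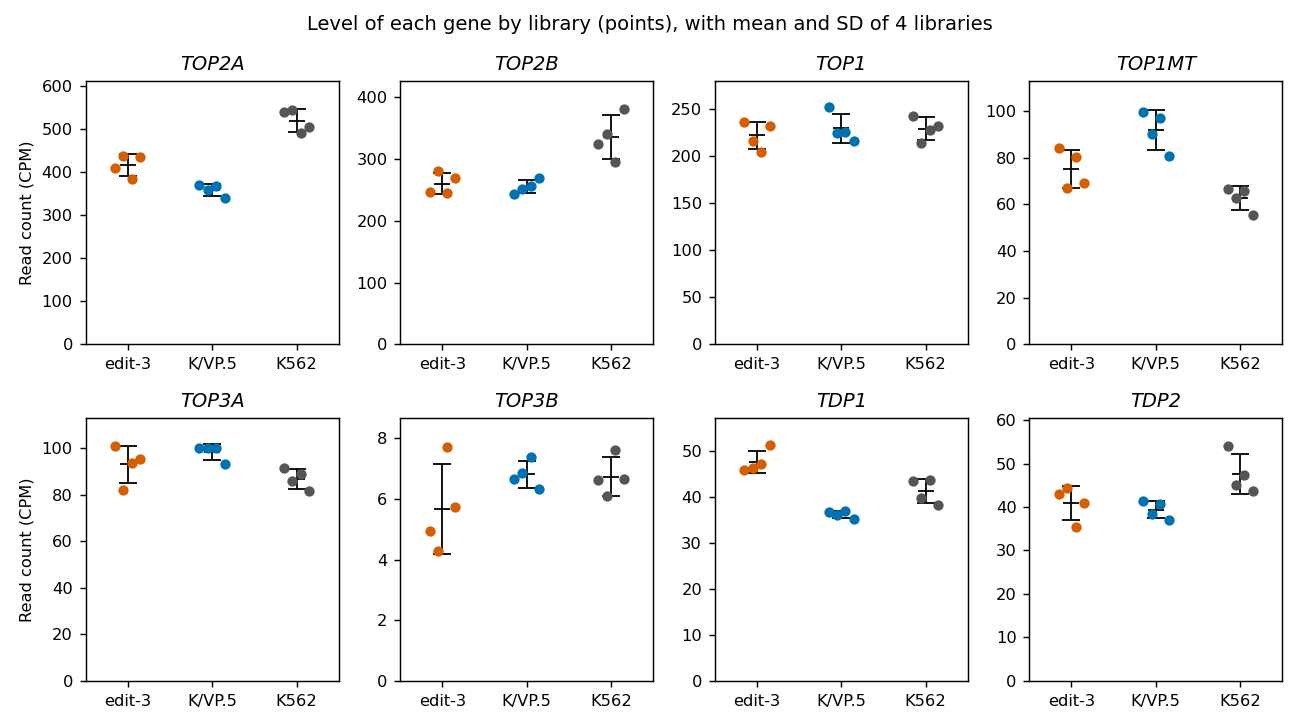
Level of each of the 8 genes in CPM (vertical axis, linear, from 0) in edit-3, K/VP.5 and K562. Points are libraries, and bars give the mean and SD of 4 libraries. In TOP2A the 4 edit-3 libraries sit between 383 and 437 CPM, above the 4 K/VP.5 libraries and below the 4 K562 libraries, while in TOP2B edit-3 and K/VP.5 overlap.

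The promoters of the type II genes are printed because the mRNA of both was lower in the resistant line. The capitals mark ATTGG, the reverse complement of the CCAAT box that the factor NF-Y binds, which was searched on both strands. The sequences are from RefSeq (GRCh38.p14, minus strand), end just before the annotated start of the gene, and cover chr17:40417951-40418146 for TOP2A and chr3:25664908-25665157 for TOP2B.
TOP2A promoter: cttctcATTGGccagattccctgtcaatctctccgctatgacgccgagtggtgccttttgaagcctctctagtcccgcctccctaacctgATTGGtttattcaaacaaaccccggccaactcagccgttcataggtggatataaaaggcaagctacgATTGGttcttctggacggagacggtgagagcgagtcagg
TOP2B promoter: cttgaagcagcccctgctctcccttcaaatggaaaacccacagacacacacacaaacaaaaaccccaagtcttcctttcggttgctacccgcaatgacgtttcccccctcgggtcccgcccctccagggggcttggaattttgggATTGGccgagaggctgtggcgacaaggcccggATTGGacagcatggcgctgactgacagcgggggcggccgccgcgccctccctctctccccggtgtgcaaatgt
The stretch printed for TOP2A holds 3 matches and the whole 300-base RefSeq window of TOP2A holds 4. The window of TOP2B that is printed in part holds 2 matches, and its other window holds 0. Of 35116 windows of this length over all genes, 0.991% hold at least 4 matches, 3.26% at least 3, 10.8% at least 2 and 34.6% at least 1. The windows of TOP1, TOP3A, TOP3B, TDP1 and TDP2 hold 0 matches, which says only that these letters are not in them. TOP1MT had no window in the table used. A match describes the sequence and is not evidence of binding.

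TOP1, the nuclear type I enzyme that works ahead of RNA and DNA polymerases and is the target of camptothecins, did not differ between the lines beyond the spread of the libraries. TOP1 (ENSG00000198900, chr20:41028818-41124487, plus strand) stood at 236, 216, 204 and 232 CPM in edit-3, at 252, 225, 226 and 216 CPM in K/VP.5 and at 243, 214, 228 and 232 CPM in K562. The 3 lines overlapped throughout, with means of 222 ± 14.7, 230 ± 15.6 and 229 ± 12 CPM in that order (SD, n = 4 each). The 95% interval of the log2 fold change of TOP1 ran from -0.16 to 0.17 for K/VP.5 versus K562, from -0.21 to 0.11 for edit-3 versus K/VP.5 and from -0.21 to 0.12 for edit-3 versus K562 (edgeR adjusted p = 0.98, 0.66 and 0.65). These intervals leave out a fall of TOP1 as large as that of TOP2A in either comparison with K562.

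TOP1MT, the type I enzyme of mitochondrial DNA, was the member that rose in K/VP.5. TOP1MT (ENSG00000184428, chr8:143304384-143359979, minus strand) stood at 84.1, 66.9, 80.1 and 69.3 CPM in edit-3, at 99.6, 90.0, 97.1 and 80.6 CPM in K/VP.5 and at 66.4, 62.8, 65.8 and 55.5 CPM in K562. K/VP.5 lay above K562 in every library, while edit-3 lay between them, overlapping K/VP.5 in range and clearing K562 by less than 1 CPM. The means were 75.1 ± 8.27 CPM in edit-3, 91.8 ± 8.5 CPM in K/VP.5 and 62.6 ± 4.99 CPM in K562 (SD, n = 4 each).

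The log2 fold change of TOP1MT in K/VP.5 versus K562 was 0.55 (SE 0.095, edgeR adjusted p = 0.00031), and it passed in all 12 fits without 1 library. In edit-3 versus K/VP.5 it was -0.29 (SE 0.095, edgeR adjusted p = 0.038), which did not pass without K/VP.5 replicate 1, 2 or 3 or edit-3 replicate 2 or 4. Over all 12 fits this log2 fold change of TOP1MT lay between -0.36 and -0.24, with an edgeR adjusted p up to 0.11. In edit-3 versus K562 it was 0.26 (edgeR adjusted p = 0.040). That last call passed in only 2 of the 12 fits without 1 library, those without edit-3 replicate 2 or K562 replicate 1, and the adjusted p of TOP1MT reached 0.12 in the others. It was also not called by DESeq2 (adjusted p = 0.077).

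TOP3A, which untangles crossed DNA strands together with the BLM helicase, showed a small difference that did not pass the test. TOP3A (ENSG00000177302, chr17:18271428-18315007, minus strand) stood at 101, 81.9, 93.6 and 95.2 CPM in edit-3, at 99.8, 100, 100 and 93.0 CPM in K/VP.5 and at 91.2, 85.6, 88.9 and 81.3 CPM in K562. The K/VP.5 libraries all lay above the K562 libraries, and edit-3 overlapped both. The log2 fold change of TOP3A was 0.18 for K/VP.5 versus K562 (SE 0.073, 95% interval 0.02 to 0.35, edgeR adjusted p = 0.068). With replicate numbers as a block, which treats same-numbered libraries as pairs, the adjusted p of TOP3A was 0.043. It was 0.031 without edit-3 replicate 2, 0.026 with the 2 lines alone and 0.017 with upper-quartile scaling. For edit-3 the log2 fold change of TOP3A was -0.08 against K/VP.5 and 0.10 against K562 (edgeR adjusted p = 0.46 and 0.32).

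TOP3B, which acts on DNA and RNA with the scaffold protein TDRD3, had the fewest reads of the members and an uncertain value. TOP3B (ENSG00000100038, chr22:21957025-21982816, minus strand) stood at 4.94, 4.27, 7.71 and 5.73 CPM in edit-3, at 6.66, 6.87, 7.39 and 6.32 CPM in K/VP.5 and at 6.61, 6.09, 7.61 and 6.64 CPM in K562. Edit-3 replicate 3 held the highest value of all 12 libraries, and the other 3 edit-3 libraries lay below every K562 and K/VP.5 library. The log2 fold change of TOP3B was 0.01 for K/VP.5 versus K562 (95% interval -0.35 to 0.38, edgeR adjusted p = 0.96). It was -0.27 for edit-3 versus K/VP.5 (95% interval -0.63 to 0.10, edgeR adjusted p = 0.27) and -0.25 for edit-3 versus K562 (95% interval -0.62 to 0.12, edgeR adjusted p = 0.25). Without edit-3 replicate 3 both comparisons of edit-3 passed, at -0.45 against K/VP.5 (edgeR adjusted p = 0.036) and -0.44 against K562 (edgeR adjusted p = 0.025).

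The reads of TOP3B could be shared with its pseudogene and its antisense gene. The pseudogene TOP3BP1 (chr22:22223187-22224566) had nearly as many reads as TOP3B in each library, with a TOP3B to TOP3BP1 ratio of 0.949 to 1.19. The antisense gene AC245452.1, which overlaps TOP3B, had 8.84 to 14.0 times the reads of TOP3B. No source used here gives the strand setting of the counting, so reads of the pair cannot be told apart. With the reads of TOP3B and TOP3BP1 summed, a choice made after seeing the data, the comparisons of edit-3 gave log2 fold changes of -0.22 against K/VP.5 and -0.21 against K562 (edgeR adjusted p = 0.33 and 0.28).

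TDP1, the phosphodiesterase that cuts the bond between DNA and a trapped type I enzyme, was the member with the clearest change in edit-3 relative to K/VP.5. TDP1 (ENSG00000042088, chr14:89954939-90044768, plus strand) stood at 45.9, 46.3, 47.3 and 51.3 CPM in edit-3, at 36.8, 36.1, 37.0 and 35.2 CPM in K/VP.5 and at 43.5, 39.9, 43.8 and 38.4 CPM in K562. The lines did not overlap, with edit-3 at the top and K/VP.5 at the bottom. The means were 47.7 ± 2.5 CPM in edit-3, 36.3 ± 0.802 CPM in K/VP.5 and 41.4 ± 2.65 CPM in K562 (SD, n = 4 each).

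The log2 fold change of TDP1 for edit-3 versus K/VP.5 was 0.40 (SE 0.070, 95% interval 0.24 to 0.55, edgeR adjusted p = 0.00072), and it passed in all 12 fits without 1 library. The other changes of TDP1 were near the threshold. For K/VP.5 versus K562 it was -0.19 (SE 0.070, edgeR adjusted p = 0.045), and it did not pass without edit-3 replicate 3, K562 replicate 1, 2 or 3 or any 1 of the K/VP.5 replicates. Over all 12 fits this log2 fold change of TDP1 lay between -0.23 and -0.16, with an edgeR adjusted p up to 0.13. For edit-3 versus K562 it was 0.20 (edgeR adjusted p = 0.031), and it did not pass without K/VP.5 replicate 1, 2 or 4, edit-3 replicate 3 or 4 or K562 replicate 2 or 4. Over all 12 fits this log2 fold change of TDP1 lay between 0.15 and 0.23, with an edgeR adjusted p up to 0.14.

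TDP2, the phosphodiesterase that cuts the bond between DNA and a trapped type II enzyme and so repairs the damage etoposide leaves, fell in K/VP.5 relative to K562. TDP2 (ENSG00000111802, chr6:24649977-24667033, minus strand) stood at 42.9, 44.4, 35.4 and 41.0 CPM in edit-3, at 41.4, 38.5, 40.8 and 37.0 CPM in K/VP.5 and at 54.1, 45.0, 47.4 and 43.7 CPM in K562. The K/VP.5 libraries lay below all K562 libraries, while edit-3 overlapped K/VP.5, and K562 at 1 library. The means were 40.9 ± 3.92 CPM in edit-3, 39.4 ± 2.01 CPM in K/VP.5 and 47.5 ± 4.62 CPM in K562 (SD, n = 4 each).

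The log2 fold change of TDP2 for K/VP.5 versus K562 was -0.27 (SE 0.089, edgeR adjusted p = 0.028). The call ended when K/VP.5 replicate 2 or 4 was left out, or K562 replicate 1 or 3, and also without a filter on low counts (edgeR adjusted p = 0.063). Over all 12 fits without 1 library this log2 fold change of TDP2 lay between -0.31 and -0.20, with an edgeR adjusted p up to 0.097. For edit-3 versus K562 it was -0.21 (95% interval -0.42 to -0.01, edgeR adjusted p = 0.071), and the adjusted p of TDP2 was 0.044 without edit-3 replicate 2 and 0.039 without K562 replicate 4. For edit-3 versus K/VP.5 it was 0.05 (95% interval -0.15 to 0.26, edgeR adjusted p = 0.71).

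Counted over the 8 members, 1 rose and 4 fell in K/VP.5 versus K562 and 3 did not pass. In that comparison 36.6% of all tested genes passed (18.3% higher and 18.3% lower), and the ranges of the lines did not overlap for 37.4% of them. In edit-3 versus K/VP.5, TOP2A and TDP1 rose, TOP1MT fell and 5 members did not pass, where 23.6% of all tested genes passed (12.9% higher and 10.6% lower) and 26% did not overlap. In edit-3 versus K562, TOP1MT and TDP1 rose, TOP2A and TOP2B fell and 4 did not pass, where 39.2% of all tested genes passed (20.6% higher and 18.6% lower) and 34% did not overlap. These counts moved when 1 library was left out. In K/VP.5 versus K562, 3 members passed in place of 5 without K562 replicate 1 or 3, and likewise without K/VP.5 replicate 2 or 4. In edit-3 versus K/VP.5, 1 passed in place of 3 without edit-3 replicate 2 or 4, and likewise without K/VP.5 replicate 1, 2 or 3. In edit-3 versus K562, 2 passed in place of 4 without K562 replicate 2, and likewise without edit-3 replicate 4 or K/VP.5 replicate 1, 2 or 4. The median log2 fold change of the members was -0.09, -0.01 and -0.13 in these 3 comparisons, in the order given, with medians near 0 over all tested genes. Each line serves in more than 1 of the comparisons, so they are not independent of each other.

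**Figure D2:**
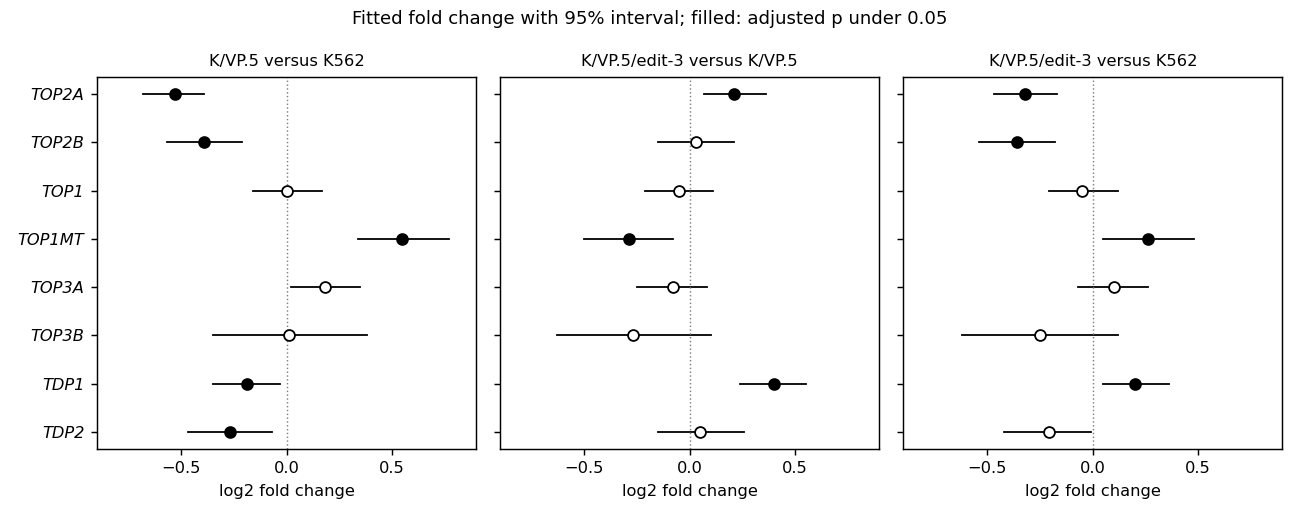
Fitted log2 fold change (horizontal axis) of each of the 8 genes in the 3 comparisons, with 95% intervals from edgeR's fit to 12 libraries. Filled circles passed an adjusted p of 0.05. TOP2A is at -0.53 in K/VP.5 versus K562 and at 0.21 in edit-3 versus K/VP.5, and TOP1MT has the opposite signs, at 0.55 and -0.29.

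Levels of different members were compared per kilobase of exon, as RPKM (reads scaled to library size and to exon length), computed here with the exons of GENCODE 29. In edit-3 the order was TOP2A (64.6 ± 3.9 RPKM), TOP1 (59.4 ± 3.9), TOP2B (43.1 ± 2.9), TOP3A (14.3 ± 1.2), TDP2 (13.3 ± 1.3), TOP1MT (11.7 ± 1.3), TDP1 (7.66 ± 0.4) and TOP3B (0.853 ± 0.22). In K/VP.5 it was TOP1 (61.5 ± 4.2 RPKM), TOP2A (55.8 ± 2.2), TOP2B (42.3 ± 1.7), TOP3A (15.2 ± 0.55), TOP1MT (14.3 ± 1.3), TDP2 (12.8 ± 0.65), TDP1 (5.83 ± 0.13) and TOP3B (1.03 ± 0.067). In K562 it was TOP2A (80.7 ± 4.0 RPKM), TOP1 (61.3 ± 3.2), TOP2B (55.5 ± 5.9), TDP2 (15.4 ± 1.5), TOP3A (13.4 ± 0.66), TOP1MT (9.72 ± 0.77), TDP1 (6.65 ± 0.43) and TOP3B (1.01 ± 0.096), each mean ± SD with n = 4.

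TOP2A thus headed the order in K562, where it lay above TOP1 in every library, and lay below TOP1 in K/VP.5, where the ranges were 52.6 to 57.6 RPKM for TOP2A and 57.8 to 67.5 RPKM for TOP1. In edit-3 the libraries of TOP2A and TOP1 overlapped, at 59.5 to 67.9 and 54.5 to 63.1 RPKM. Other neighbours in the order that overlapped were TOP3A and TDP2, and TDP2 and TOP1MT, in edit-3, TOP3A and TOP1MT, and TOP1MT and TDP2, in K/VP.5, and TOP1 and TOP2B in K562. The order depends on the length used. With the longest coding transcript in place of all exons, a choice made after seeing the data, TOP2A (62.3 RPKM) and TOP1 (61.5 RPKM) changed places in K/VP.5, TOP2B (62.3 RPKM) and TOP1 (61.3 RPKM) did so in K562, and TOP1MT took the fourth place in every line.

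Ratios of the reads of a pair of members within a library do not depend on how libraries are scaled. The phosphodiesterase of type II damage was set against its main substrate, TDP2 over TOP2A. This ratio was 0.0926 to 0.105 in edit-3, 0.107 to 0.112 in K/VP.5 and 0.0829 to 0.100 in K562. K/VP.5 lay above both other lines without overlap, although TDP2 itself was lower in K/VP.5 than in K562, since TOP2A was lower by more. The difference in mean log2 ratio of TDP2 over TOP2A was 0.27 for K/VP.5 versus K562 and -0.16 for edit-3 versus K/VP.5 (exact two-sided permutation p = 0.029 each, the smallest that 4 against 4 libraries can give, adjusted p = 0.043 over 9 tests). For edit-3 versus K562 it was 0.11 (exact permutation p = 0.26, adjusted p = 0.29). Here and for the ratios below, an exact permutation p of 0.029 means only that the 2 lines did not overlap. The adjusted p of 0.043 follows from how many of the 9 permutation tests did so. The share of all gene pairs that would not overlap was not computed. For single genes it was 37.4% in K/VP.5 versus K562, 26% in edit-3 versus K/VP.5 and 34% in edit-3 versus K562.

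The phosphodiesterase of type I damage over its substrate, TDP1 over TOP1, was 0.195 to 0.232 in edit-3, 0.146 to 0.164 in K/VP.5 and 0.166 to 0.192 in K562. No pair of lines overlapped, and edit-3 was the highest. The difference in mean log2 ratio of TDP1 over TOP1 was -0.19 for K/VP.5 versus K562, 0.45 for edit-3 versus K/VP.5 and 0.25 for edit-3 versus K562 (exact permutation p = 0.029 and adjusted p = 0.043 each). TOP2A over TOP2B was 1.55 to 1.66 in edit-3, 1.26 to 1.52 in K/VP.5 and 1.33 to 1.66 in K562. Edit-3 lay above K/VP.5 without overlap, by 0.18 on the log2 scale (exact permutation p = 0.029, adjusted p = 0.043). TOP2A over TOP2B differed by -0.14 between K/VP.5 and K562 (exact permutation p = 0.17, adjusted p = 0.22) and by 0.04 between edit-3 and K562 (exact permutation p = 0.86). With same-numbered libraries paired, the smallest two-sided p that 4 pairs allow is 0.125, and no ratio could pass.

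**Figure D3:**
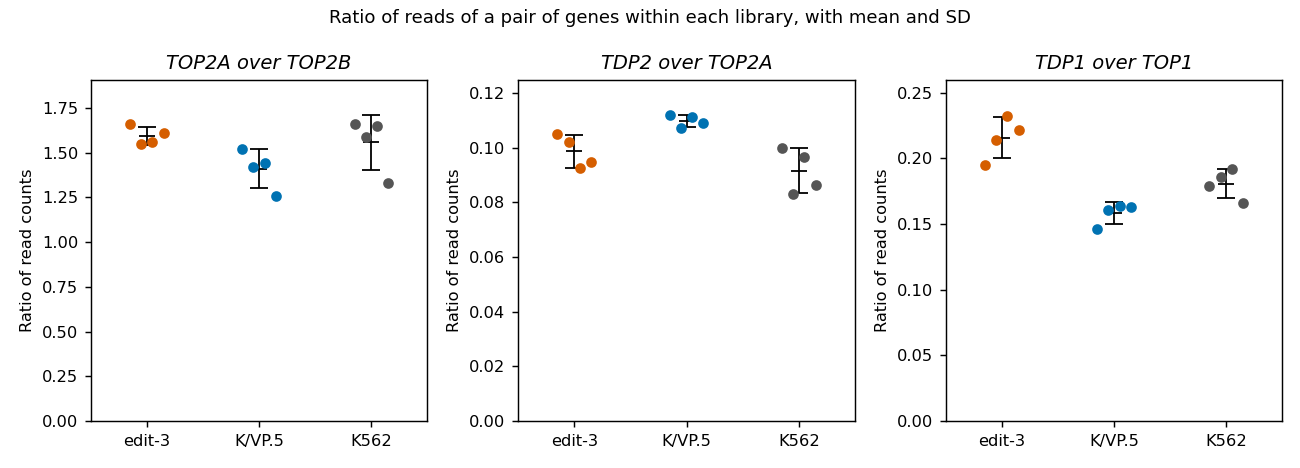
Ratio of the read counts of a pair of genes within each library (vertical axis, linear, from 0) in edit-3, K/VP.5 and K562, with mean and SD of 4 libraries. TDP1 over TOP1 is highest in edit-3, at 0.195 to 0.232, and TDP2 over TOP2A is highest in K/VP.5, at 0.107 to 0.112.

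Partners of the type I enzymes moved in both directions in the derived lines relative to K562. Of 8 listed partners 7 were tested, and in K/VP.5 versus K562 2 rose and 2 fell, where 18.3% of all tested genes rose and 18.3% fell. TDRD3, the scaffold of TOP3B, rose in K/VP.5, at 15.1 ± 0.505 CPM against 7.59 ± 0.47 CPM in K562, a log2 fold change of 0.99 (edgeR adjusted p = 1.3e-06). FMR1, an RNA-binding protein found with TDRD3 and TOP3B, fell by 0.44 on the log2 scale (edgeR adjusted p = 0.0005). Of the small RMI proteins that form a complex with TOP3A and BLM, RMI2 rose by 0.83 (edgeR adjusted p = 0.0013) and RMI1 fell by 0.43 (edgeR adjusted p = 0.007). For edit-3 versus K562 the count was also 2 higher and 2 lower (20.6% and 18.6% over all tested genes), with TDRD3 at a log2 fold change of 1.06 (edgeR adjusted p = 5.5e-07), RMI2 at 0.45 (edgeR adjusted p = 0.046), FMR1 at -0.49 and RMI1 at -0.32. Between edit-3 and K/VP.5, 0 of the 7 passed by edgeR or by DESeq2, and 2 had an unadjusted edgeR p under 0.05. With replicate numbers as a block 2 passed, and 1 passed when edit-3 replicate 1 or 2 or K562 replicate 4 was left out. Against K562, 2 partners in place of 4 passed in edit-3 with the 2 lines alone or without edit-3 replicate 4 or K562 replicate 1 or 3.

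Genes that remove or repair trapped topoisomerases held members that rose and members that fell. Of 28 listed and tested, 8 rose and 6 fell in K/VP.5 versus K562, 2 rose and 5 fell in edit-3 versus K/VP.5, and 5 rose and 9 fell in edit-3 versus K562. Over all tested genes the shares that passed were 36.6%, 23.6% and 39.2%, so the count in edit-3 versus K/VP.5 was close to that over all genes. Their median log2 fold changes were -0.04, -0.05 and -0.09 in that order. ERCC4, the nuclease subunit XPF, was highest in K/VP.5, at 9.86 ± 1.32 CPM in edit-3, 28.4 ± 0.972 CPM in K/VP.5 and 18.6 ± 1.41 CPM in K562. Its log2 fold change was 0.61 for K/VP.5 versus K562 (edgeR adjusted p = 0.00017), -1.52 for edit-3 versus K/VP.5 (edgeR adjusted p = 4.7e-08) and -0.91 for edit-3 versus K562 (edgeR adjusted p = 3.9e-06).

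RNF4, a ubiquitin ligase that marks SUMO-tagged proteins for destruction, fell in both derived lines, at 47.9 ± 5.9 CPM in edit-3, 58.0 ± 4.59 CPM in K/VP.5 and 102 ± 2.85 CPM in K562. Its log2 fold change was -0.81 for K/VP.5 versus K562 (edgeR adjusted p = 5.2e-06) and -1.08 for edit-3 versus K562 (edgeR adjusted p = 2.3e-07). SPRTN, a protease of proteins bound to DNA, fell by 0.58 in edit-3 versus K/VP.5 (edgeR adjusted p = 0.0028), at 30.9 ± 4.1 CPM in edit-3 against 46.1 ± 4.15 CPM in K/VP.5. LIG3, a ligase that closes strand breaks, fell by 0.56 in K/VP.5 versus K562 (edgeR adjusted p = 0.00012). Its log2 fold change in edit-3 versus K562 was -0.76 (edgeR adjusted p = 4.8e-06). MRE11, a nuclease that opens blocked DNA ends, rose by 0.60 in edit-3 versus K562 (edgeR adjusted p = 4.6e-05). It also rose by 0.43 in K/VP.5 versus K562 (edgeR adjusted p = 0.0011). Neither LIG3 nor MRE11 passed in edit-3 versus K/VP.5 (edgeR adjusted p = 0.097 and 0.16).

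FAM111A, a protease with a role at trapped TOP1, had the largest fold in this list but few reads. It had 166 reads over the edit-3 libraries, 40 over K/VP.5 and 4 over K562. Its fitted log2 fold change was 2.99 for K/VP.5 versus K562, 2.12 for edit-3 versus K/VP.5 and 5.12 for edit-3 versus K562 (edgeR adjusted p = 0.0014, 0.00034 and 1.3e-06), and the values against K562 rest on those 4 reads.

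End-joining genes close breaks of both strands. Of 8 listed 7 were tested, and 2 changed in K/VP.5 versus K562 (36.6% of all tested genes did), 2 in edit-3 versus K/VP.5 (23.6%) and 1 in edit-3 versus K562 (39.2%). LIG4 and its partner XRCC4, which seal the ends, stood at 20.9 ± 1.38 and 10.4 ± 1.15 CPM in edit-3, at 14.9 ± 0.824 and 7.79 ± 0.56 CPM in K/VP.5 and at 20.7 ± 3.76 and 10.5 ± 0.669 CPM in K562. They were the 2 that fell in K/VP.5 versus K562, by 0.47 and 0.43 on the log2 scale (edgeR adjusted p = 0.0051 and 0.006), and the 2 that rose in edit-3 versus K/VP.5, by 0.49 and 0.41 (edgeR adjusted p = 0.0069 and 0.012). Against K562, edit-3 showed 1 change: PRKDC, the kinase that holds broken ends, rose by 0.24 (edgeR adjusted p = 0.014). In edit-3 versus K/VP.5, 1 gene of the list passed without a filter or without K/VP.5 replicate 1, and in edit-3 versus K562 0 passed without edit-3 replicate 4.

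TOP2A is made mainly in the G2 and M phases, so genes of these phases were set beside it. Of 25 tested, 3 rose and 3 fell in K/VP.5 versus K562, 1 rose and 2 fell in edit-3 versus K/VP.5, and 3 rose and 6 fell in edit-3 versus K562. Over all tested genes 36.6%, 23.6% and 39.2% passed in these comparisons, and the count in edit-3 versus K562 was close to that share. The median log2 fold changes of the list were 0.07, -0.07 and 0.0045. CENPE, a kinesin at the centromere, stood at 89.7 ± 4.77 CPM in edit-3, 107 ± 5.92 CPM in K/VP.5 and 198 ± 8.65 CPM in K562 (log2 fold change -0.89 for K/VP.5 versus K562, edgeR adjusted p = 9.3e-08). KIF11, the kinesin that spreads the spindle poles, stood at 93.3 ± 6.09 CPM in edit-3, 98.7 ± 5.33 CPM in K/VP.5 and 148 ± 9.3 CPM in K562 (log2 fold change -0.58 for K/VP.5 versus K562, edgeR adjusted p = 1.5e-05).

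Other genes of these phases went the other way. HMMR, a spindle protein, rose by 0.43 in K/VP.5 versus K562 (edgeR adjusted p = 0.0006), and NDC80, a kinetochore protein, rose by 0.39 (edgeR adjusted p = 0.0074). Between edit-3 and K/VP.5, CDK1, the kinase that starts mitosis, rose by 0.22 in edit-3 (edgeR adjusted p = 0.035), while the mitotic kinase AURKB fell by 0.30 (edgeR adjusted p = 0.037) and CENPE fell by 0.26 (edgeR adjusted p = 0.012). Between edit-3 and K/VP.5, 1 gene of the list in place of 3 passed without edit-3 replicate 4 or without K/VP.5 replicate 1, 2 or 3. The part of the cell cycle in the TOP2A values was not tested.

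Of 11 factors that bind the TOP2A promoter or cell cycle promoters, all tested, 1 passed in each comparison, where 36.6%, 23.6% and 39.2% of all tested genes passed. LIN9, a subunit of the complex that governs cell cycle genes, rose by 0.30 in K/VP.5 versus K562 (edgeR adjusted p = 0.026). NFYA, the subunit through which NF-Y reads the CCAAT box, stood at 61.2 ± 7.79 CPM in edit-3, 85.9 ± 6.21 CPM in K/VP.5 and 97.9 ± 10.5 CPM in K562. It fell by 0.49 in edit-3 versus K/VP.5 (edgeR adjusted p = 0.0024) and by 0.68 in edit-3 versus K562 (edgeR adjusted p = 7.3e-05). A link between these factors and the level of TOP2A was not tested. In K/VP.5 versus K562 the count was 0 without K/VP.5 replicate 1, 2 or 3 or K562 replicate 3, and 2 without edit-3 replicate 1 or 2, with the 2 lines alone, with a stricter filter or with replicate numbers as a block. It was 2 in edit-3 versus K562 with upper-quartile scaling or without edit-3 replicate 1 or 2 or K562 replicate 4.

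The profile of TOP2A over the 12 libraries was compared with those of 12911 protein-coding genes. The measure was the root mean square distance between log2 values of CPM plus 0.5, each profile centred on its own mean. The nearest were CHD1L (0.0605), a chromatin remodeler used in DNA repair, TAS2R4 (0.0724), a taste receptor, INIP (0.0751), a subunit of a complex that binds single DNA strands, PPA2 (0.08), a mitochondrial pyrophosphatase, and TPM1 (0.0817), a tropomyosin. TAS2R4 stood at only 0.62 CPM in edit-3, 0.459 CPM in K/VP.5 and 0.894 CPM in K562, where the added 0.5 CPM shrinks differences. Its fitted log2 fold change was -0.96 for K/VP.5 versus K562, against -0.53 for TOP2A, so its place among the nearest is uncertain. The median distance over all genes was 0.326. When 1 library was left out, 2 to 4 of these 5 genes were still the nearest. CHD1L stood at 72.1 CPM in edit-3, 64.2 CPM in K/VP.5 and 91.2 CPM in K562. This is the order of lines of TOP2A, which follows from picking CHD1L by its nearness in these same libraries. None of the 25 genes of the G2 and M phases was among the nearest 100, and the closest of them was MKI67, the proliferation marker, at rank 157 with a distance of 0.13.

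Genes on either side of a member differed by a like amount in some comparisons and not in others. For each member the 10 tested genes on each side were described. All 20 neighbours of TOP2B, over 8.5 Mb of chromosome 3, had a negative log2 fold change in K/VP.5 versus K562, with a median of -0.42 beside -0.39 for TOP2B, and 11 of them fell and 0 rose, where 18.3% of all tested genes fell and 18.3% rose. Their median in edit-3 versus K562 was -0.42 beside -0.36 for TOP2B, with 11 lower and 2 higher (18.6% and 20.6% over all tested genes). Of the neighbours of TDP1 over 2.79 Mb of chromosome 14, 13 rose and 0 fell in edit-3 versus K/VP.5, with a median of 0.56 beside 0.40 for TDP1, where 12.9% of all tested genes rose and 10.6% fell. In edit-3 versus K562 the median beside TDP1 was 0.80, with 13 higher and 0 lower, while TDP1 itself was at 0.20. In K/VP.5 versus K562 the signs were opposite, with a median of 0.17 (6 higher, 3 lower) beside -0.19 for TDP1.

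The neighbours of TOP1MT had a median log2 fold change of 0.22 in K/VP.5 versus K562 (7 higher, 0 lower) and of -0.25 in edit-3 versus K/VP.5 (0 higher, 3 lower), beside 0.55 and -0.29 for TOP1MT. In edit-3 versus K562 their median was -0.05 (6 higher, 2 lower) beside 0.26 for TOP1MT. Over all tested genes 18.3% rose and 18.3% fell in K/VP.5 versus K562, and 12.9% rose and 10.6% fell in edit-3 versus K/VP.5. In edit-3 versus K562, 20.6% of them rose and 18.6% fell. The neighbours of TOP2A over 1.55 Mb had a median of -0.08 in K/VP.5 versus K562 (2 higher, 7 lower), against -0.53 for TOP2A. In edit-3 versus K/VP.5 their median was 0.21 (7 higher, 0 lower), which is also the value of TOP2A. In edit-3 versus K562 it was 0.23 (5 higher, 4 lower), against -0.32 for TOP2A. Around TOP1, TOP3A, TOP3B and TDP2 the medians lay between -0.20 and 0.10 in all 3 comparisons. The part of the surrounding region in the values of the members was not tested.

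**Figure D4:**
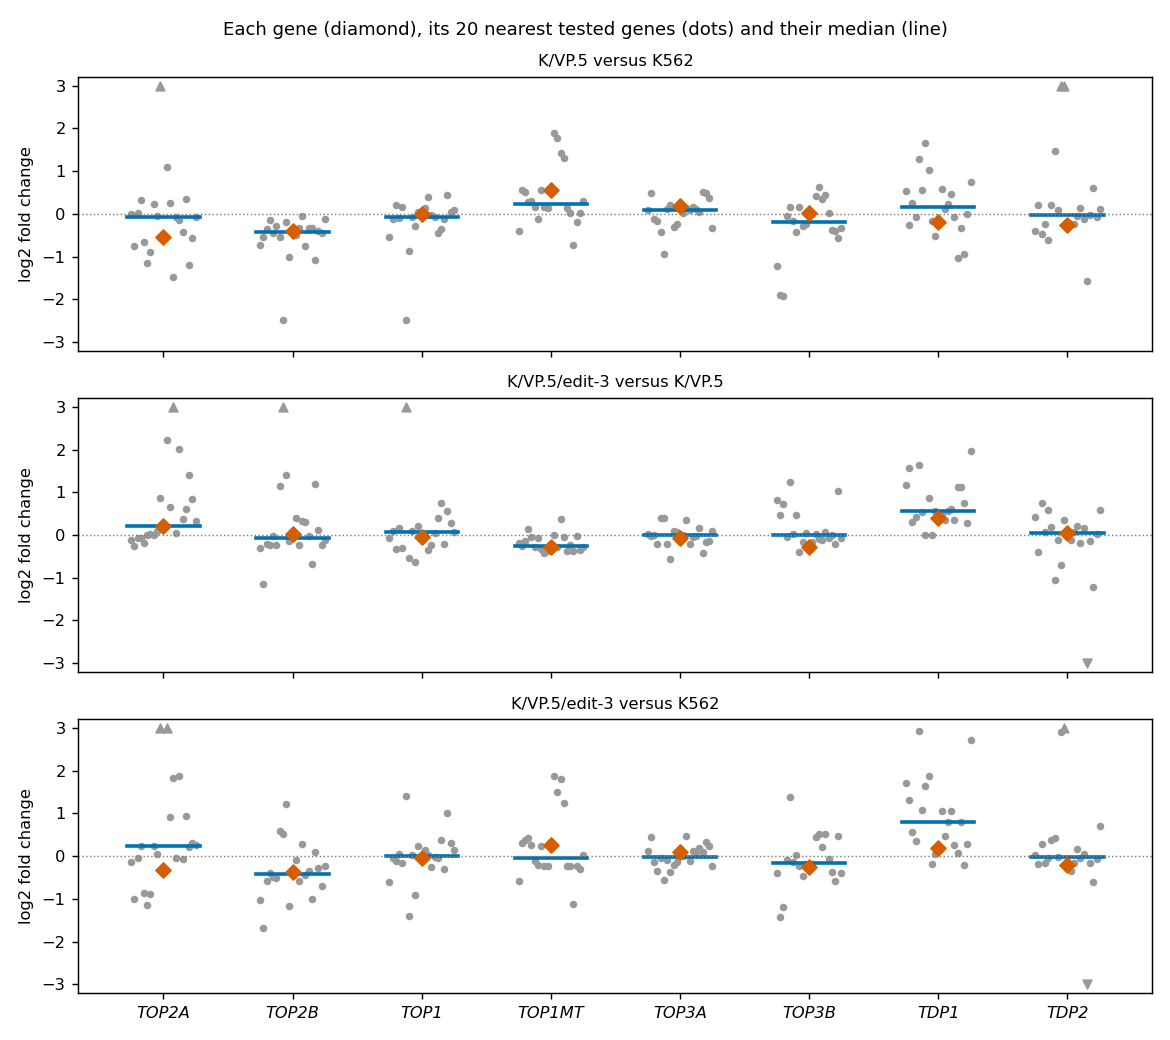
Log2 fold change (vertical axis) of each member (diamond), of the 10 tested genes on each side of it on its chromosome (grey) and their median (blue line) in the 3 comparisons. Of 480 neighbour values, the 11 beyond 3 in either direction are drawn as triangles at 3. The neighbours of TOP2B lie below 0 in K/VP.5 versus K562, and most of those of TDP1 lie above 0 in edit-3 versus K/VP.5.

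Marker genes were read as a check of the cells. All 9 markers of the K562 line had reads, with a sum of 3180 to 4470 CPM in edit-3, 3230 to 4020 CPM in K/VP.5 and 3790 to 5170 CPM in K562. Summed markers of hepatocytes (2 genes) stayed at or below 0.24 CPM, those of B cells (3 genes, MS4A1 at 0 reads) at or below 4.71 CPM and those of monocytes (3 genes) at or below 4.94 CPM. Summed T cell markers (3 genes) were 19.4 to 50.7 CPM in edit-3, at least 7.82 CPM in K/VP.5 and 37.3 to 77.2 CPM in K562, nearly all from CD3D, which stood at 7.57 to 15.7 CPM in K/VP.5. Summed fibroblast markers (3 genes) were 5.59 to 16.2 CPM in edit-3, 16.3 to 23.7 CPM in K/VP.5 and 1.45 to 5.63 CPM in K562. Summed epithelial markers (4 genes), mostly keratins and EPCAM, were 1380 to 2270 CPM in edit-3, 952 to 1510 CPM in K/VP.5 and 786 to 1680 CPM in K562, and their part in the results was not tested.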

How the data were processed

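RNA of edit-3, K/VP.5 and K562 cells was sequenced in 12 libraries, 4 per line, with totals of 25.3 M to 37.1 M reads. The authors deposited 1 table of raw, whole-number read counts without normalization. The build was GRCh38 and the tools were featureCounts, Subread 1.5.1 and HISAT2 2.1.0, per the submitters' processing notes. Not given in the sources used here are the annotation release, the strand setting and the handling of reads with several matches. GENCODE 29 supplied positions and lengths for 58275 of the 58395 gene IDs.

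Lines were assigned by source name and replicate numbers by title. The description field calls all libraries parental, against the source names, and was not used. Software was DESeq2 1.42.0, limma 3.58.1 and edgeR 4.0.16 under R 4.3.3. The filter filterByExpr left 18286 genes with 99.89% of reads. All 12 libraries entered 1 TMM-scaled model with a coefficient for each line, contrasts were tested by edgeR's quasi-likelihood F-test with the robust option, and a gene counted as changed at an adjusted p under 0.05. The SE is the log2 fold change divided by the square root of the F statistic, and 95% intervals use 9 residual degrees of freedom. CPM and RPKM were computed here from the deposited counts. Ratios of reads were compared by exact two-sided permutation.

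The members and gene lists were chosen with earlier results of these data known. Named were all members, the 2 changed genes with the largest fold in each direction per list and comparison (1 of these is not reported here), the 5 nearest to TOP2A, and genes that overlap a member. Libraries of a line differed by a chi-square per degree of freedom of 6.68 to 67.4 (genes with at least 20 reads), so none looked like a copy of another. Deviations of same-numbered K/VP.5 and K562 libraries correlated at 0.482, 0.331, 0.225 and 0.765 over 10607 genes. Each was above 0.1, but replicates 1 and 3 correlated better with another number (up to 0.576 and 0.273), so a pairing is a hint from the data that the labels do not give. The results are unpaired, and pairing enters only as an alternative. Same-numbered correlations of edit-3 were 0.585, -0.125, -0.219 and 0.574 with K/VP.5 and 0.714, 0.0458, -0.108 and 0.519 with K562. Edit-3 replicates 1 and 4 thus correlated better with their own number than with any other, and replicates 2 and 3 did not. The labels give no batch, and these libraries were not taken as paired. The scripts were tested on simulated data, with 50 genes changed at each fold. Over the 3 comparisons, 0% to 2% of the genes changed 1.2-fold were recovered, 10% to 12% at 1.3-fold and 84% to 96% at 2-fold. Far fewer genes were changed there than passed in the data, which makes the adjusted threshold stricter in the simulation. A member that did not pass may thus still differ by a small fold. Alternatives were other scalings, DESeq2, other filters, the 2 lines alone, a replicate block and leaving out each library.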

Additional observations from a re-analysis of the deposited data

Results flagged for a closer look

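K/VP.5 replicate 4 had a TOP3A level of 93.0 CPM, apart from the other K/VP.5 libraries at 99.8, 100 and 100 CPM. Its gap to the nearest of them was 0.914 of the whole range of the line, above Dixon's 95% critical value for 4 libraries. It was the 1 such case in 24 groups of 4 libraries (8 genes in 3 lines), and chance gives about 1 in 20.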

How the results depend on the processing

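TOP2A kept its direction and passed against K562 in the 7 other settings run (2 other scalings, DESeq2, no filter, a stricter filter, the 2 lines alone, a replicate block) and without each library (log2 fold change -0.56 to -0.50 in K/VP.5 and -0.35 to -0.28 in edit-3). In edit-3 versus K/VP.5 it was 0.20 without a filter (edgeR adjusted p = 0.14) and 0.20 with the 2 lines alone (edgeR adjusted p = 0.051), and 0.17 to 0.25 without 1 library. Without a filter, 3 members changed in K/VP.5 versus K562 and 2 in edit-3 versus K562, and with the 2 lines alone 2 did in the comparison of edit-3 with K562. Without 1 library, 3 to 6, 1 to 4 and 2 to 5 members changed (K/VP.5 versus K562, edit-3 versus K/VP.5, edit-3 versus K562), and 5839 to 7221, 3388 to 4926 and 6478 to 7553 genes. The cause of these shifts was not tested.

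With the replicate number as a block, the differences in ratio are the same by arithmetic, at 0.18 for TOP2A over TOP2B in edit-3 versus K/VP.5, 0.27 and -0.16 for TDP2 over TOP2A in K/VP.5 versus K562 and edit-3 versus K/VP.5, and -0.19, 0.45 and 0.25 for TDP1 over TOP1, but an exact sign-flip test gave p = 0.12, the smallest it can give. The block moved TOP3A past the threshold in K/VP.5 versus K562 and TDP2 in edit-3 versus K562 (edgeR adjusted p = 0.044), and it changed no other call of a member. Without 1 library, TOP2A over TOP2B ranged from -0.22 to -0.09, 0.13 to 0.22 and -0.04 to 0.07, TDP2 over TOP2A from 0.22 to 0.31, -0.19 to -0.13 and 0.06 to 0.15, and TDP1 over TOP1 from -0.23 to -0.15, 0.41 to 0.49 and 0.21 to 0.30. With 3 against 4 libraries this permutation test cannot pass 0.05.

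Signs turned only for differences near 0 that did not pass. TOP1 was 0.0044 in edit-3 versus K562 with upper-quartile scaling, and in K/VP.5 versus K562 -0.00055 with the stricter filter and -0.04 to 0.04 without 1 library (-0.03 and -0.00049 without K562 replicate 2 and 3). TOP2B in edit-3 versus K/VP.5 was -0.01 to 0.06 without 1 library (-0.0023 without edit-3 replicate 4), TOP3B in K/VP.5 versus K562 was -0.03 to 0.08, and TOP2A over TOP2B in edit-3 versus K562 was -0.04 without K562 replicate 4. TDP1 in K/VP.5 versus K562 did not pass with upper-quartile scaling (edgeR adjusted p = 0.089) or without a filter (edgeR adjusted p = 0.22). TOP3B had the fewest reads of the members, 128 to 237 per library.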

Other observations

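Some genes beside the members, picked after their values were seen, differed by more than the members did. The processed pseudogene AC080112.2 (chr17:40380666-40381838, minus strand), the tested gene next to TOP2A on its downstream side, had 390 reads over the edit-3 libraries, 229 over K/VP.5 and 6 over K562, or 3.21 ± 0.552 CPM in edit-3, 1.76 ± 0.468 CPM in K/VP.5 and 0.0501 ± 0.0564 CPM in K562 (SD, n = 4 each). Its log2 fold change was 0.86 for edit-3 versus K/VP.5 (edgeR adjusted p = 0.021). ALDH5A1 (chr6:24494852-24537207, plus strand), the enzyme that clears succinic semialdehyde, lies near TDP2 and stood at 29.6 ± 2.54 CPM in edit-3, 23.1 ± 1.24 CPM in K/VP.5 and 0.0962 ± 0.0825 CPM in K562, where it had 11 reads over the 4 libraries. Its log2 fold change was 7.83 for K/VP.5 versus K562 (edgeR adjusted p = 3.4e-12), a value that rests on those 11 reads, while TDP2 fell by 0.27.

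A small RNA gene listed as ENSG00000222881 lies inside an intron of TOP2A, where 0 annotated TOP2A transcripts have an exon. It had 10 reads over the 4 edit-3 libraries, 0 over the 4 K/VP.5 libraries and 15 over the 4 K562 libraries. A count of 0 in 127 M reads allows up to 3 reads.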
